A study of Mus musculus with 16 samples.

Results

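On 12 mouse chromosomes, 194 windows of 500 kb were contacted from both of a pair of promoters that lie on other chromosomes, Pole/Pxmp2 on chromosome 5 and Cdca3/Usp5 on chromosome 6. These windows were chosen by contact. Chromosomes 1, 3, 8, 10 and 12 to 19 were divided into 500-kb windows, and a window was kept when at least 5 of the 8 libraries of each promoter listed at least 1 contact site in it. The 194 windows were 15.0% of the 1295 windows in which any library listed a site. They were 7.38% of the 2630 windows between the first and the last listed site of those chromosomes. Positions are given in the mm9 build, counted from 1.

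The assay was 4C-seq, a circularised form of chromosome conformation capture read by sequencing. Chromatin is fixed, cut and religated, and the DNA joined to 1 chosen fragment, the viewpoint, is amplified outward from it and read. The viewpoints were bidirectional promoters, from which neighbouring genes are transcribed in opposite directions. All 16 libraries came from mouse embryonic fibroblasts (MEFs) of E13.5 embryos, proliferating at passage 4, fixed in 1% formaldehyde and cut with HindIII and then NlaIII. Each viewpoint had 4 Rb1+/+ and 4 Rb1L/L libraries. Rb1L/L cells carry the L allele of Rb1 on both copies, an allele known from other work to alter the cleft of pRb that binds LXCXE-motif proteins. The labels name no other allele, agent or Cre in either genotype. The cultures form 4 numbered MEF pairs, 1 of each genotype, and the same pairs appear at both viewpoints, so 8 cultures gave 16 libraries. The labels do not say what links the cultures of a pair, so p-values measure the spread between these cultures.

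Pole is the catalytic subunit of DNA polymerase epsilon, which copies DNA during S phase, and Pxmp2 is a channel protein of the peroxisomal membrane. Cdca3 takes part in cell division, and Usp5 takes ubiquitin chains apart. Rb1 encodes pRb, which restrains E2F transcription factors and with them entry into S phase, and the title of the series concerns its recruitment of condensin II, a chromosome-compacting complex, to promoters. Contacts between chromosomes (in trans) are rarer than contacts within one, and in most cell types regions rich in active genes tend to meet each other. Mouse autosomes have their centromere at the end where coordinates begin, so the distal end of a chromosome is its other telomere.

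Of the genes at the viewpoints, the RefSeq promoter table (GRCm38.p6) held an entry for Cdca3, which is shown because one set of contacts was viewed from the promoter shared by Cdca3 and Usp5. It covers chr6:124829926-124830225 on the plus strand in that build, which is not the build of the contact lists. The exact viewpoint fragment is not given in the labels, and whether it overlaps this stretch is not known. Capitals mark TTTGAA, the cell cycle homology region element, and CCAAT on either strand (read as ATTGG on the other).
Cdca3: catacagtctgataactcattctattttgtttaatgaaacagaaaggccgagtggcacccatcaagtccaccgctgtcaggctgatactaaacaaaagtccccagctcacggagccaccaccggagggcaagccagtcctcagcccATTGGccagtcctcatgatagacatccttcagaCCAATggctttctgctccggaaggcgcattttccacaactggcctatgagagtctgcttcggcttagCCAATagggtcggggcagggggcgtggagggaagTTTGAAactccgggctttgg
TTTGAA occurred once, on the forward strand, and 17.9% of the 32851 RefSeq promoters of this length held it on either strand. CCAAT occurred at 2 places on the forward and 1 on the reverse strand, and 37.4% of the promoters held it. AAGCTT, the HindIII site, was not among these letters, and 7.45% of the promoters held it. No mm9 genome or annotation was used, so the contacted windows are named by position and neither their sequence nor their genes are given.

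The lists give sites without reads, so sequencing depth is unknown and the number of listed sites stands in for yield. Pole libraries listed 6485 to 17522 sites, of which 2616 to 8899 were in trans, and Cdca3 libraries listed 15802 to 39650, of which 10537 to 30028 were in trans. The cultures of MEF pair 1 had the shortest lists at both viewpoints. Rb1L/L replicate 1 listed the fewest sites of its viewpoint both at Pole (6485) and at Cdca3 (15802). Next came Rb1+/+ replicate 1, with 7925 at Pole and 19972 at Cdca3. At Pole, Rb1+/+ replicate 2 was also short with 9569, and the remaining libraries listed at least 14103. Values without pair 1 stand beside the genotype results below, and they still include the short list of Pole Rb1+/+ replicate 2.

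The windows kept by the rule sat close to its limit for Pole and far inside it for Cdca3. Of the 194 windows, 78 were listed by 5 Pole libraries, 71 by 6, 38 by 7 and 7 by 8. Of the same windows, 1 was listed by 5 Cdca3 libraries, 17 by 6, 57 by 7 and 119 by 8. The only window at 5 and 5 was chr3:131000001-131500000, in which the listing Pole libraries had 5 to 17 sites and the listing Cdca3 libraries 17 to 29. Just outside the limit lay 98 windows with 4 Pole libraries and at least 5 Cdca3 libraries, and 2 windows with 4 Cdca3 and at least 5 Pole libraries. The first of these in genome order, chr1:58500001-59000000, had 2, 7, 4 and 13 sites in its 4 Pole libraries and 10 to 23 in its 5 Cdca3 libraries. In chr1:60000001-60500000, 4 Pole libraries had 4 to 19 sites and 7 Cdca3 libraries had 12 to 36. In chr1:73500001-74000000, 4 Pole libraries had 2 to 6 sites and 7 Cdca3 libraries had 8 to 32. Site numbers of the named windows just inside and just outside the limit therefore overlapped, and the other windows at the limit were not compared.

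Nearly every window that Pole contacted in 5 or more libraries was also contacted by Cdca3, but not the reverse. The Pole list held 198 windows and the Cdca3 list 620. The 194 shared windows were 98.0% of the Pole list and 31.3% of the Cdca3 list. This leaves 4 windows in the Pole list alone and 426 in the Cdca3 list alone. The longer Cdca3 lists move with this asymmetry, and their part in it was not tested.

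The shared windows gathered in runs. They formed 66 runs of adjacent windows, of which 16 were single windows and 18 were pairs, while 19 runs of at least 4 windows held 103 of the 194. A neighbouring shared window was present for 178 of them (91.8%). The called regions from which the sites come can span several windows, so neighbours are not independent. Chromosome 8 held 30 shared windows, which were 27.3% of its windows with a site, and chromosome 3 held 28 (19.7%). Chromosome 17 held 20 (22.2%), chromosome 12 held 21 (18.1%), chromosome 14 held 20 (16.3%), chromosome 15 held 17 (19.5%) and chromosome 16 held 13 (16.3%). Chromosome 1 held 18 (10.7%), chromosome 10 held 11 (9.09%), chromosome 13 held 9 (7.83%), chromosome 18 held 4 (4.598%) and chromosome 19 held 3 (5.45%). Chromosome 8 thus had about as many shared windows as chromosomes 1 and 10 together, on fewer windows with a site.

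**Figure D1:**
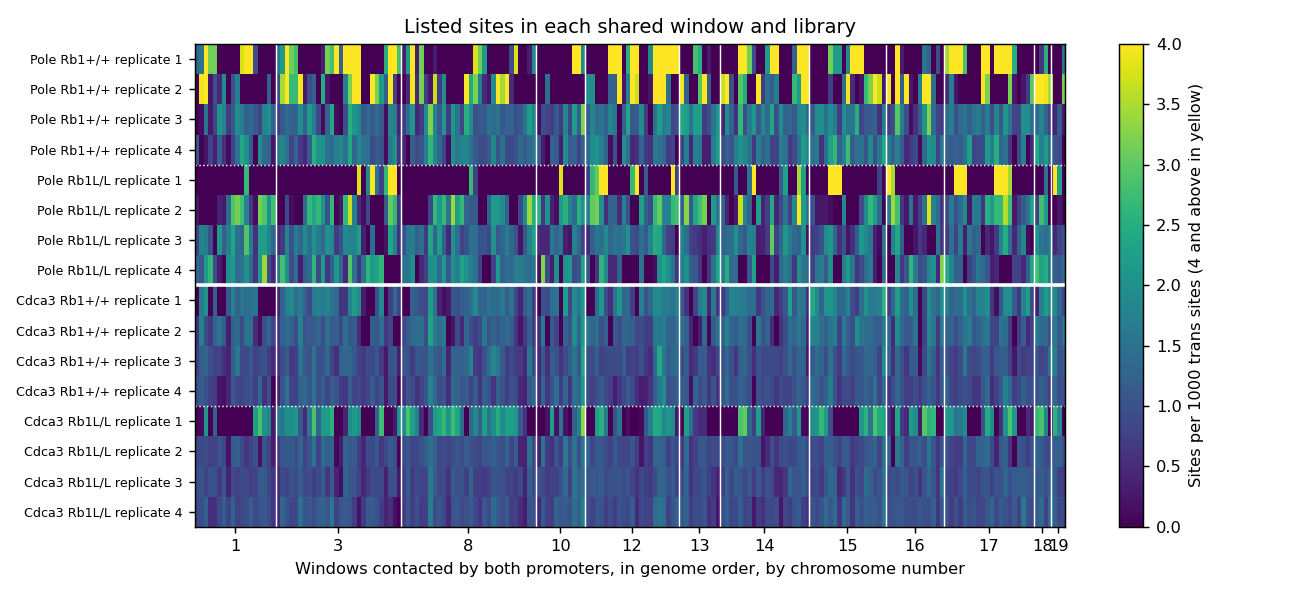
Listed sites per 1000 trans sites (colour, values of 4 and above in yellow) in each of the 194 shared windows (columns, in genome order, with chromosome numbers below) and each of the 16 libraries (rows). Pole rows are broken by many empty windows and Cdca3 rows are nearly filled; Pole Rb1L/L replicate 1 has the most empty windows, with a site in 45 of 194.

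The longest run, of 16 windows, was chr8:122000001-130000000, which ended 0.980 Mb before the last listed site of chromosome 8. Its level at Pole, in sites per 1000 trans sites, was 16.0, 27.8, 23.6 and 20.2 in the Rb1+/+ libraries and 3.44, 21.0, 20.8 and 20.9 in the Rb1L/L libraries. At Cdca3 it was 20.5, 16.3, 17.4 and 14.8 in Rb1+/+ and 23.0, 15.9, 13.8 and 14.5 in Rb1L/L. Over the 8 libraries of each viewpoint this was 19.2 ± 7.18 at Pole and 17.0 ± 3.19 at Cdca3 (SD, n = 8). Each of the 16 libraries contacted this run, and Pole Rb1L/L replicate 1 was the only low one.

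The run of 9 windows at chr15:96000001-100500000 lay 2.18 Mb from the last listed site. At Pole its level was 20.4, 20.1, 12.5 and 14.2 sites per 1000 trans sites in Rb1+/+ and 0.765, 11.02, 9.10 and 10.4 in Rb1L/L. At Cdca3 it was 13.3, 12.5, 10.2 and 9.41 in Rb1+/+ and 11.6, 8.89, 8.87 and 9.84 in Rb1L/L. At Pole the lowest Rb1+/+ level (12.5) lay just above the highest Rb1L/L level (11.02), and at Cdca3 the genotypes overlapped. How many of the 66 runs showed no overlap was not counted. The run was named for its length and its level was not tested as a run. The run of 7 windows at chr12:111000001-114500000 had 13.2 ± 9.63 sites per 1000 trans sites at Pole and 9.43 ± 2.04 at Cdca3 (SD, n = 8), with 34.9 in Pole Rb1+/+ replicate 1 and 4.97 to 16.2 in the other Pole libraries.

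The last of the long runs, each of 6 windows, were chr3:87000001-90000000 and chr1:180500001-183500000. The chromosome 3 run lay 63.3 Mb from the last listed site, at 8.46 ± 6.57 sites per 1000 trans sites for Pole and 6.89 ± 1.74 for Cdca3 (SD, n = 8). It had 0 sites in Pole Rb1L/L replicate 1 and 1.01 per 1000 in Pole Rb1L/L replicate 2, against 6.97 to 18.7 in the other 6. The chromosome 1 run had 8.91 ± 4.48 at Pole and 5.27 ± 2.50 at Cdca3 (SD, n = 8), with 0 sites in Cdca3 Rb1L/L replicate 1 and 4.59 to 8.69 in the other Cdca3 libraries. Single libraries thus left out whole runs that the remaining libraries contacted.

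The shared windows lay towards the distal ends of their chromosomes. Of the 194, 72 (37.1%) had their middle less than 10 Mb before the chromosome's last listed site, against 9.24% of all windows from the first to the last site. Of the 426 windows on the Cdca3 list alone, 54 (12.7%) lay that close. Past 0.5 of the distance from the first to the last listed site lay 73.7% of the shared windows and 49.9% of all windows, and past 0.8 of it 47.9% against 20.04%. Such windows occurred on 10 of the 12 chromosomes, and on 9 of the 12 the last shared window ended within 2 Mb of the last listed site. Chromosome 8 gave 16 of the 72, chromosome 15 gave 10, chromosome 17 gave 9 and chromosome 12 gave 8. Chromosome 18, whose 4 shared windows were adjacent and ended at 36.5 Mb, far from its last site at 83.9 Mb, and chromosome 19 gave none. These shares are a description of positions, without a test, since adjacent windows are not independent.

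Contact fell off steeply outside the shared windows at both viewpoints. At Pole the mean level was 1.34 ± 0.285 sites per 1000 trans sites in a shared window, 0.454 ± 0.112 in windows 0.5 Mb away and 0.215 ± 0.0971 in windows 1 Mb away (SD over 8 libraries). At Cdca3 it was 1.05 ± 0.120, 0.604 ± 0.0452 and 0.315 ± 0.0398. At 5 Mb it was 0.0585 ± 0.0508 at Pole and 0.0773 ± 0.0242 at Cdca3. The level at distance 0 was fixed by the rule, and the drop to the next window is partly so, because a window under the limit could not be a member. The windows 0.5 Mb away had a site in 2.88 of 8 Pole libraries and 6.02 of 8 Cdca3 libraries on average.

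**Figure D2:**
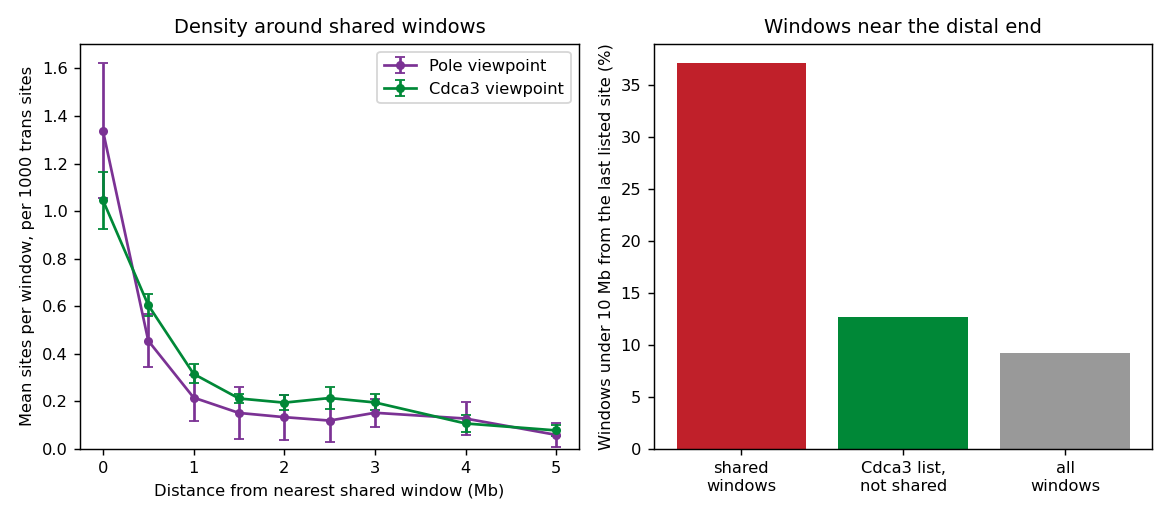
Left, mean listed sites per window and per 1000 trans sites (vertical axis) by distance in Mb from the nearest shared window, for the Pole and Cdca3 viewpoints, with bars of 1 SD over 8 libraries. Right, percentage of windows under 10 Mb from the last listed site of their chromosome, at 37.1% for shared windows, 12.7% for windows of the Cdca3 list alone and 9.24% for all windows.

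Among the shared windows the level varied more at Pole than at Cdca3. The mean over 8 Pole libraries ran from 0.422 to 3.40 sites per 1000 trans sites, with a median of 1.25, and the mean over 8 Cdca3 libraries ran from 0.350 to 2.11, with a median of 1.07. The log2 ratio of the Pole to the Cdca3 mean ran from -1.46 to 2.17 with a median of 0.33, was above 0 in 137 windows and lay between -1 and 1 in 168. Over the 194 windows the Pole and Cdca3 means had a Pearson r of 0.345 and a Spearman rho of 0.369. The Rb1+/+ and Rb1L/L means had r of 0.237 and rho of 0.216 at Pole and r of 0.599 and rho of 0.587 at Cdca3. These are descriptions over windows that share libraries, list lengths and neighbours. The rule takes in 98.0% of the Pole list and 31.3% of the Cdca3 list, so the excess of ratios above 0 follows in part from it.

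**Figure D3:**
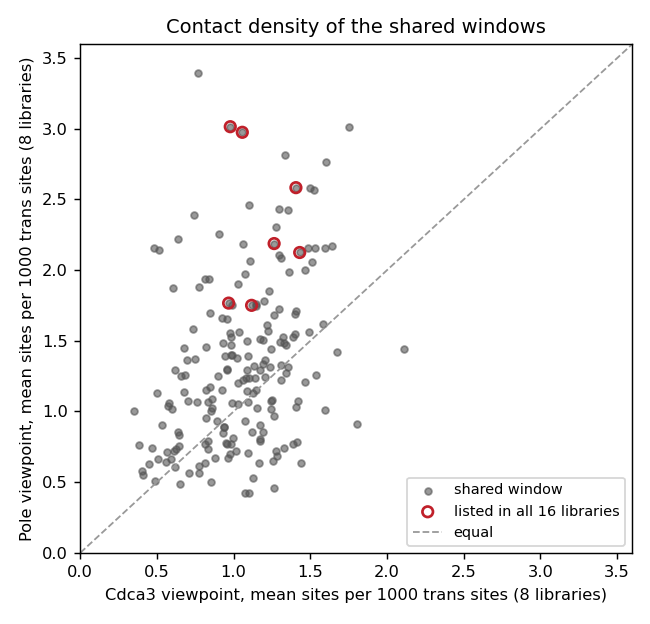
Mean listed sites per 1000 trans sites over 8 libraries in each of the 194 shared windows, Cdca3 on the horizontal and Pole on the vertical axis, with the 7 windows listed in all 16 libraries circled and a dashed line of equal levels. Pole means reach 3.40 and Cdca3 means 2.11, and 137 windows lie above the line, which follows in part from how the windows were chosen.

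Only 7 shared windows had a site in all 16 libraries. At chr14:121500001-122000000 the Pole libraries listed 14, 9, 13 and 13 sites in Rb1+/+ and 9, 32, 11 and 13 in Rb1L/L, and the Cdca3 libraries listed 23, 29, 23 and 27 in Rb1+/+ and 22, 34, 29 and 23 in Rb1L/L. Its level was 2.58 ± 1.21 sites per 1000 trans sites at Pole and 1.41 ± 0.361 at Cdca3 (SD, n = 8). The next window, chr14:122000001-122500000, had its middle 2.02 Mb before the last listed site of chromosome 14 and was at 2.98 ± 1.79 and 1.06 ± 0.450, with 6 to 21 sites at Pole and 1 to 36 at Cdca3. In both windows every culture gave contacts from both promoters, with genotypes overlapping.

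Of the others, chr3:122500001-123000000 was at 3.01 ± 2.54 sites per 1000 trans sites for Pole and 0.978 ± 0.633 for Cdca3. The window chr15:81000001-81500000 was at 2.12 ± 1.37 and 1.43 ± 0.363. The windows chr8:123000001-123500000 (1.75 ± 1.11 and 1.12 ± 0.499) and chr17:25500001-26000000 (1.77 ± 1.60 and 0.967 ± 0.343) were the lowest of the 7 at Pole. The remaining one, on chromosome 18, was at 2.19 ± 0.848 and 1.26 ± 0.511 (SD, n = 8 throughout). Presence in all libraries did not require a position at the distal end, since the windows on chromosomes 17 and 18 lay 63.2 and 48.2 Mb from the last listed site.

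The windows with the highest level at both viewpoints, ranked by the lower of the 2 means, were led by chr12:112000001-112500000. The Pole libraries listed 24, 22, 16 and 13 sites there in Rb1+/+ and 0, 24, 21 and 13 in Rb1L/L. The Cdca3 libraries listed 26, 28, 44 and 35 in Rb1+/+ and 25, 38, 36 and 31 in Rb1L/L. Only Pole Rb1L/L replicate 1 was empty, and the means were 3.01 ± 2.38 and 1.75 ± 0.445 sites per 1000 trans sites (SD, n = 8). The flanking windows chr12:111500001-112000000 (2.16 ± 1.68 at Pole and 1.53 ± 0.472 at Cdca3) and chr12:112500001-113000000 (2.16 ± 1.53 and 1.60 ± 0.264) were also among the first 10. Chromosome 12 thus gave 3 adjacent windows of that list.

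Chromosome 16 gave 2 of the first 10. The window chr16:91500001-92000000, which lay 4.08 Mb from the last listed site, was at 2.17 ± 1.82 at Pole and 1.64 ± 0.492 at Cdca3, and chr16:17500001-18000000 at 2.77 ± 1.86 and 1.605 ± 0.533. Chromosome 17 also gave 2, chr17:47000001-47500000 (2.06 ± 1.70 and 1.51 ± 0.489) and chr17:80000001-80500000 (2.58 ± 2.17 and 1.496 ± 0.394). The other three were chr10:126500001-127000000 (1.62 ± 1.70 and 1.58 ± 0.243), chr14:31500001-32000000 (2.57 ± 2.52 and 1.52 ± 0.568) and chr3:95500001-96000000 (1.56 ± 1.07 and 1.49 ± 0.637). In each of the 10, all 8 Cdca3 libraries and 6 or 7 Pole libraries had a site, and the SD over the Pole libraries exceeded that over the Cdca3 libraries. Pole Rb1L/L replicate 1 was empty in 9 of the 10.

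Some shared windows leaned towards 1 viewpoint, although the rule kept out windows that only 1 viewpoint contacted. At chr3:151500001-152000000, 1.502 Mb from the last listed site, the Pole libraries listed 20, 18, 13 and 14 sites in Rb1+/+ and 20, 24, 21 and 0 in Rb1L/L. The Cdca3 libraries listed 10, 15, 18 and 20 in Rb1+/+ and 0, 34, 27 and 11 in Rb1L/L. Relative to its libraries' trans sites it was the highest window at Pole, with 3.40 ± 2.56 against 0.769 ± 0.358 at Cdca3 (SD, n = 8), a log2 ratio of 2.14. Ratios of 2.17 at chr12:87500001-88000000 and 2.06 at chr14:122500001-123000000 were the other highest ones.

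At the opposite end, chr16:33500001-34000000 had 0, 0, 4 and 8 Pole sites in Rb1+/+ and 0, 2, 2 and 11 in Rb1L/L. It had 20, 27, 21 and 20 Cdca3 sites in Rb1+/+ and 21, 32, 28 and 19 in Rb1L/L. Its means were 0.457 ± 0.596 at Pole and 1.26 ± 0.372 at Cdca3 (SD, n = 8), a log2 ratio of -1.46. The ratios at chr8:86500001-87000000 and chr1:186000001-186500000 were -1.38 and -1.35. These windows passed the rule with 5 Pole libraries each, and the Cdca3 libraries all listed them.

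Within the shared windows, part of the restriction sites met by the promoters was the same. Listed intervals that overlapped or touched were joined into loci, which gave 19077 distinct loci in the 194 windows. Both viewpoints listed 6877 of them (36.0%), 2348 were listed from Pole alone and 9852 from Cdca3 alone. Of the Pole loci, 74.5% were also listed by some Cdca3 library, and of the Cdca3 loci 41.1% were also listed by some Pole library. A single library listed 6790 loci, no locus was listed by more than 12 of the 16 libraries, and 7 loci met at the site level the limit of 5 libraries of each viewpoint that the windows met. Most Pole loci were also Cdca3 loci while most Cdca3 loci were not Pole loci. The same 6877 loci are set here against 9225 Pole loci and 16729 Cdca3 loci, of 19077 in all. This asymmetry therefore restates the longer Cdca3 lists and is not a separate result about the sites.

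A site listed in one library was nevertheless more often listed in a second one than a site the first had not listed. Each pairing used only the shared windows in which both libraries listed a site. Within them it used only loci that any of the other 14 libraries listed. Of such loci listed by a Pole library, 22.5% on average were listed by the Cdca3 library of the same culture. Of such loci that the Pole library had not listed, 18.5% were. The difference averaged 3.97 percentage points and lay between 2.46 and 5.08 in the 8 cultures. With the Cdca3 library of another culture the difference averaged 3.21 points and was above 0 in 55 of 56 pairings. Between libraries of one viewpoint it was 4.37 points at Pole (13.7% against 9.33%) and 5.26 at Cdca3 (23.5% against 18.2%), above 0 in all 56 ordered pairings of each. These pairings reuse libraries and have no test. Loci were pooled over windows, and the window levels at Pole and Cdca3 went together (Pearson r of 0.345). How much of each difference lay between windows rather than between single sites of a window was not tested.

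**Figure D4:**
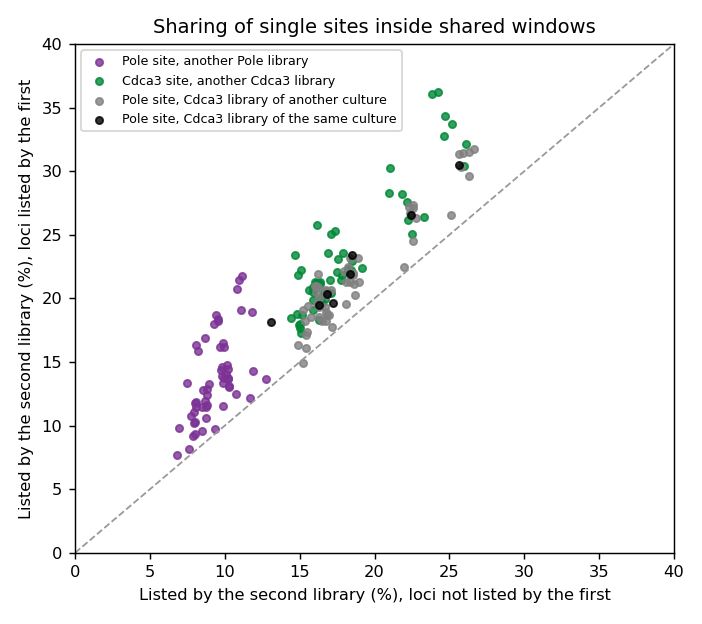
Each point is an ordered pairing of 2 libraries and gives the percentage of loci that the second library listed. It is given among loci not listed by the first (horizontal) and listed by the first (vertical). Only shared windows in which both libraries listed a site, and loci that any of the other 14 libraries listed, were used. Loci are pooled over windows, so differences between windows are included. Points above the dashed line mean that listing in the first library went with listing in the second, as in all 8 pairings of a Pole with a Cdca3 library of the same culture and 55 of 56 pairings across cultures.

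The sites in shared windows had lower deposited values than the other sites of the same chromosomes in 15 of 16 libraries. The authors deposited with each site a value below 0.05, a p-value or a q-value, and which of these it is could not be settled. At Pole, 53.6%, 46.8%, 78.4% and 79.8% of the sites in shared windows were under 0.01 in Rb1+/+ and 19.3%, 53.2%, 76.6% and 70.2% in Rb1L/L, against 23.2% to 51.9% of the other sites. At Cdca3 the shares were 82.2%, 90.4%, 97.5% and 97.0% in Rb1+/+ and 61.9%, 93.3%, 98.1% and 95.3% in Rb1L/L, against 25.9% to 78.0% of the other sites. Pole Rb1L/L replicate 1 was the exception, with 19.3% in the shared windows and 23.2% elsewhere. The occupied shared windows also held more sites, with a median per library of 10.8 ± 1.65 at Pole and 22 ± 3.66 at Cdca3, against 6.75 ± 0.886 and 13.9 ± 3.44 in the other occupied windows (SD, n = 8). Neighbouring sites often carry one value, and both measures are tied to how the regions were called, so this is a description.

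The regions called by the authors covered 37.1% to 99.4% of the shared windows' length in Pole libraries and 82.4% to 100% in Cdca3 libraries. Of the 194 windows, 42 overlapped a called region in all 16 libraries. All 8 Cdca3 libraries covered 139 windows end to end, and all 8 Pole libraries covered 25. Of the regions called on the 12 chromosomes, 45.9% to 65.5% per Pole library and 40.7% to 50.0% per Cdca3 library touched a shared window. The sites come from these regions, so the coverage follows in part from the rule. Coverage of the other occupied windows was not measured.

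The comparison that the study's design poses is whether these contacts differed in Rb1L/L cells, and genotype was not used to choose the windows. The share of a library's sites on the 12 chromosomes that fell in shared windows was lower on average in Rb1L/L cells at both promoters, within the spread between libraries. At Pole it was 65.1%, 60.7%, 47.8% and 44.9% in Rb1+/+ and 30.4%, 53.0%, 44.1% and 45.6% in Rb1L/L. The groups overlapped, with replicate 1 highest among the Rb1+/+ and lowest among the Rb1L/L libraries. The means were 54.6% ± 9.82 and 43.3% ± 9.40 (SD, n = 4 each), a difference of -11.4 percentage points (exact two-sided permutation p = 0.171, 95% interval -34.7 to 8.11), and 3 of 4 pairs were lower in Rb1L/L. Without MEF pair 1 the difference was -3.59 points.

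At Cdca3 the share was 47.8%, 40.1%, 36.3% and 34.3% in Rb1+/+ and 42.6%, 33.7%, 33.1% and 33.6% in Rb1L/L. The groups overlapped again, and replicate 1 was the highest library of each. The means were 39.6% ± 5.97 and 35.8% ± 4.58 (SD, n = 4 each), a difference of -3.87 points (exact two-sided permutation p = 0.286, 95% interval -14.7 to 8.30), and 4 of 4 pairs were lower in Rb1L/L. Without MEF pair 1 it was -3.43 points, and over sites with a deposited value under 0.01 it was 1.05. The genotype difference at Pole minus that at Cdca3 was -7.49 points (exact two-sided permutation p = 0.457, 95% interval -32.8 to 8.72), and -0.161 without MEF pair 1. The smallest p that 4 against 4 libraries allow is 0.0286. Over the 8 such comparisons made, the Benjamini-Hochberg adjusted value was 0.857 for each. The share moved with list length. At Cdca3, libraries with up to 27478 listed sites had shares of 36.3% to 47.8%, and those with 28421 or more had 33.1% to 34.3%. At Pole the shortest list (6485) had the lowest share, 30.4%. Pole lists of 7925 and 9569 sites had 65.1% and 60.7%, and those of 14103 or more had 44.1% to 53.0%. The part of list length was not tested.

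**Figure D5:**
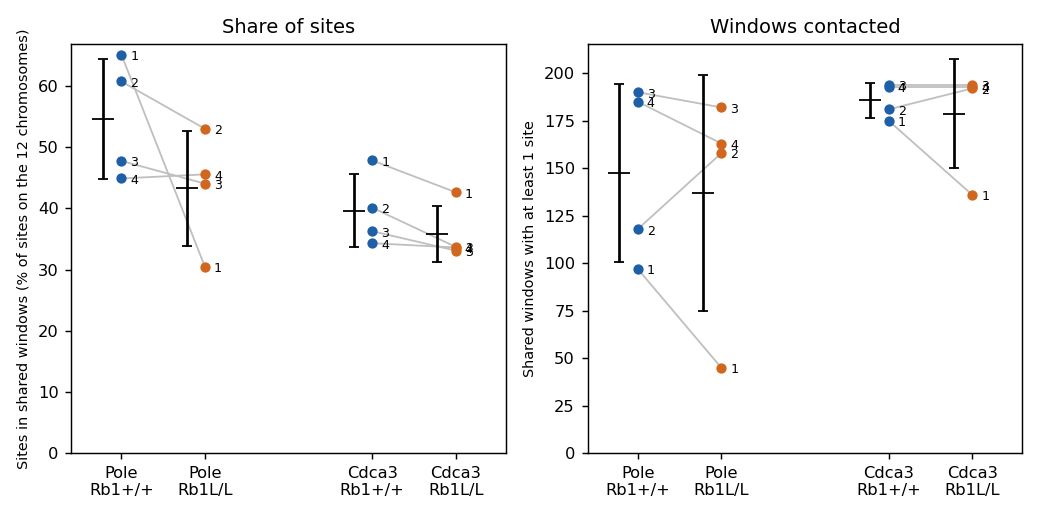
Left, percentage of each library's listed sites on the 12 chromosomes that lay in shared windows, and right, number of the 194 shared windows with at least 1 site, by viewpoint and genotype. Points are libraries labelled with their replicate number, grey lines join MEF pairs, and black bars are the mean ± SD of 4 libraries; at Pole replicate 1 falls from 65.1% to 30.4% and the other 3 pairs differ by less.

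The share was higher from Pole than from Cdca3 in 7 of 8 cultures, Rb1L/L replicate 1 being the exception with 30.4% against 42.6%. This comparison of viewpoints follows the rule, since few windows beyond the shared ones were on the Pole list, and has no test.

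The number of shared windows contacted did not differ between genotypes beyond the spread. Pole libraries contacted 97, 118, 190 and 185 of the 194 windows in Rb1+/+ and 45, 158, 182 and 163 in Rb1L/L, a mean difference of -10.5 (exact two-sided permutation p = 0.771, 95% interval -145 to 85, n = 4 each). Cdca3 libraries contacted 175, 181, 194 and 193 in Rb1+/+ and 136, 192, 194 and 193 in Rb1L/L, a difference of -7 windows (exact two-sided permutation p = 0.857, 95% interval -58 to 19). Both differences turned positive without MEF pair 1, at 3.33 and 3.67 windows. The Pole interval reached 145 of the 194 windows.

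The share of sites in shared windows with a deposited value under 0.01 was 64.7% ± 16.9 in Rb1+/+ and 54.8% ± 25.7 in Rb1L/L at Pole (SD, n = 4 each), a difference of -9.84 points (exact two-sided permutation p = 0.486, 95% interval -60.5 to 29.8). At Cdca3 it was 91.8% ± 7.17 and 87.1% ± 16.9, a difference of -4.64 points (exact two-sided permutation p = 0.8, 95% interval -35.6 to 15.9). Without MEF pair 1 these were -1.68 and 0.570 points. Of the Pole sites in shared windows, 18.7%, 21.2%, 18.1% and 20.6% were listed at the same site by the Cdca3 library of the same Rb1+/+ culture, and 12%, 28.1%, 24.5% and 18.3% in the Rb1L/L cultures. These percentages took in all Pole sites in shared windows, unlike the pairings of libraries above. The means of 19.6% ± 1.48 and 20.7% ± 7.08 differed by 1.08 points (exact two-sided permutation p = 0.771, 95% interval -9.19 to 9.98, n = 4 each). The Rb1L/L cultures lay on both sides of the Rb1+/+ range.

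Single windows were compared with limma on log2 of sites plus 0.5 per 1000 trans sites, fitted over all trans windows with at least 8 sites in the 8 libraries. No shared window passed an adjusted p of 0.05 in any of the 4 fits, and no other window did (0% of those tested). At Pole, 6 of the 194 had an unadjusted p under 0.05, 5 of them lower and 1 higher in Rb1L/L. Of all 1346 windows tested, 2.3% did, 1.26% lower and 1.04% higher. At Cdca3 it was 12 of 194, 9 lower and 3 higher, against 4.91% of 1732 (3.12% lower and 1.79% higher). With the 2 viewpoints of each culture averaged it was 14 of 194, 11 lower and 3 higher, against 4.92% of 1117 (2.78% lower and 2.15% higher). In the comparison of the genotype effect between viewpoints it was 1 of 194, on the higher side, against 5.19% of 1117 (2.51% higher and 2.69% lower). These counts and their directions depended on single libraries and on the scaling. With 1 culture left out they ran from 2 to 7 at Pole. At Cdca3 they ran from 1 without Rb1+/+ replicate 1, and 3 (all higher) without Rb1+/+ replicate 2, to 21 (20 lower) without Rb1L/L replicate 1. For the average they ran from 6 without Rb1+/+ replicate 2 to 14. With each library centred on the median of the tested windows they were 0 at Pole, 3 at Cdca3 (2 higher, 1 lower) and 8 for the average (8 higher, 0 lower), where 70 of all windows were higher and 1 was lower.

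The smallest adjusted p of a shared window was 0.896 at Pole, 0.749 at Cdca3, 0.853 for the average and 0.916 for the difference between viewpoints.

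The direction of the shared windows depended on the scaling. The median log2 fold change of Rb1L/L against Rb1+/+ was -0.16 at Pole, -0.13 at Cdca3 and -0.32 for the average, against -0.00, -0.01 and -0.08 over all windows tested. It was above 0 in 86, 67 and 62 of the 194 (44.3%, 34.5% and 32.0%), against 49.9%, 49.5% and 45.4% of all windows. The difference of the effect between viewpoints was above 0 in 46.4% of the shared windows and 47.7% of all. With each library centred on the median of the tested windows, the medians over all windows moved to 0.26, 0.10 and 0.53 and those of the shared windows to 0.10, -0.02 and 0.30, so that they lay below the median of all windows under either scaling while their sign changed at Pole and for the average. Without Rb1L/L replicate 1 the medians of the shared windows were 0.12 at Pole, -0.19 at Cdca3 and 0.04 for the average, against 0.03, 0.04 and 0.13 over all windows.

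The precision at single windows was low at Pole. The 95% interval of a shared window's log2 fold change reached to either side of it by a median of 2.77 at Pole, 1.10 at Cdca3 and 1.503 for the average. At Cdca3 the interval of 60 of the 194 windows lay within -1 and 1, so a change of more than 2-fold in either direction lay outside it, and at Pole this held for 0 windows. The Cdca3 number was 101 without Rb1L/L replicate 1, 13 over sites with a deposited value under 0.01 and 0 with centred libraries, whose intervals reached a median of 2.52 to either side.

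The shared windows with the smallest unadjusted p are described with their sites. In the average of both viewpoints the first was chr15:96500001-97000000, inside the chromosome 15 run. The Pole libraries listed 6, 16, 11 and 24 sites there in Rb1+/+ and 0, 0, 2 and 14 in Rb1L/L. The Cdca3 libraries listed 24, 21, 20 and 19 in Rb1+/+ and 0, 33, 31 and 23 in Rb1L/L. The empty Rb1L/L libraries were replicate 1 at both viewpoints and replicate 2 at Pole. The log2 fold change was -2.16 ± 0.77 (SE; limma adjusted p = 0.853, unadjusted 0.00505), and at Pole alone -3.07 ± 1.39 (limma adjusted p = 0.896).

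At chr14:57500001-58000000 the Pole libraries listed 7, 6, 10 and 13 sites in Rb1+/+ and 0, 6, 6 and 0 in Rb1L/L, and the Cdca3 libraries 18, 22, 16 and 21 against 0, 15, 28 and 18. The averaged log2 fold change was -2.0 ± 0.83 (SE; limma adjusted p = 0.853). At chr17:46500001-47000000, with 14, 16, 9 and 8 Pole sites in Rb1+/+ and 0, 5, 0 and 9 in Rb1L/L, it was -1.58 ± 0.69 (SE; limma adjusted p = 0.853). At Pole alone, chr14:31500001-32000000 changed by -2.71 ± 1.16 and chr8:73000001-73500000 by -2.61 ± 1.25 on the log2 scale (SE; limma adjusted p = 0.896 for both), each with 2 empty Rb1L/L libraries. These were -1.79 without Rb1L/L replicate 4 and -1.66 without Rb1L/L replicate 2. All these values depend on the 0.5 sites added to empty windows.

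In the other direction, chr10:84000001-84500000 had 0, 0, 5 and 3 Pole sites in Rb1+/+ and 10, 17, 14 and 0 in Rb1L/L. It had 0, 0, 11 and 15 Cdca3 sites in Rb1+/+ and 16, 21, 28 and 22 in Rb1L/L. Replicates 1 and 2 of Rb1+/+ were empty at both viewpoints. The Cdca3 groups did not overlap in site numbers, but their lists differ in length. Per 1000 trans sites the highest Rb1+/+ library (replicate 4, 0.6986) and the lowest Rb1L/L library (replicate 2, 0.6993) were almost equal. Other windows without overlap were not counted. The log2 fold change was 2.37 ± 0.95 for the average and 2.85 ± 1.44 at Cdca3 (SE; limma adjusted p = 0.853 and 0.749). The averaged changes at chr1:193000001-193500000 and chr12:71500001-72000000 were 1.68 ± 0.79 and 1.36 ± 0.62 (SE; limma adjusted p = 0.853 for both), the first being 0.84 without Rb1+/+ replicate 1.

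At Cdca3 alone the remaining named windows were chr8:72500001-73000000, at 1.62 ± 0.72, and chr16:94500001-95000000, chr14:21500001-22000000 and chr1:74000001-74500000, at -1.43 ± 0.64, -1.43 ± 0.64 and -1.25 ± 0.58 (SE; limma adjusted p = 0.749 for each). The 3 lower ones had 0, 0 and 1 site in Rb1L/L replicate 1 and 17 to 43 sites in the other Cdca3 libraries. Without that library their log2 fold changes were -0.26, -0.26 and -0.56, and without Rb1+/+ replicate 1 that of chr8:72500001-73000000 was 0.39. At Pole alone, chr12:71500001-72000000, chr12:72000001-72500000 and chr14:70000001-70500000 were at 2.50 ± 1.24, 2.03 ± 1.38 and 2.15 ± 1.34 (SE; limma adjusted p = 0.896 for each), and in all 3 Rb1+/+ replicates 1 and 2 were empty. Between viewpoints, the most different genotype effects were at chr1:180500001-181000000 (3.33 ± 1.69) and chr14:31500001-32000000 (-2.83 ± 1.71; SE, limma adjusted p = 0.916 and 0.975).

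The rule limited which windows could be gained or lost by genotype. A site in all 4 libraries of 1 genotype and at most 1 of the other needs a window listed by exactly 5 libraries. There were 78 such shared windows at Pole and 1 at Cdca3, so low counts were largely fixed by the rule. A site in all 4 Rb1+/+ and at most 1 Rb1L/L library of Pole occurred in 3 shared windows, against 1.69% of the 414 windows with a site in at least 5 Pole libraries. These were chr1:136000001-136500000 with 10, 4, 6 and 3 sites in Rb1+/+ and 0, 0, 0 and 6 in Rb1L/L, chr8:86500001-87000000 with 1, 2, 3 and 8 against 0, 0, 11 and 0, and chr8:124000001-124500000 with 7, 2, 8 and 8 against 0, 0, 9 and 0. The opposite pattern at Pole (0.966% of 414 windows) and either pattern at Cdca3 (0.442% and 1.77% of 1132 windows) occurred in 0 shared windows. In each of the 3, a Rb1L/L library with a site had as many or more than most Rb1+/+ libraries.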

How the data were processed

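Each of the 16 libraries had a list of sites and a list of called regions, deposited by the authors for build mm9, per the submitters' processing notes. With each site the authors deposited a p-value or q-value below 0.05, without a header. How reads were aligned and regions called is not given in the sources used here. Of 327988 intervals, 90.1% were 6 bp long. The lists hold no reads, so depth is unknown, and intervals that need it are not given.

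Sites were counted per 500-kb window in Python 3.11.15 (pandas 2.3.3, numpy 2.4.6), and site numbers divided by each library's trans sites. For a value per library, the genotypes were set against each other in a two-sided exact permutation test, inverted for 95% intervals. Single windows were fitted with limma 3.58.1 (R 4.3.3, trended eBayes, Benjamini-Hochberg over all windows tested). The fit was also run on simulated site numbers drawn independently for each window. Neighbouring real windows are not independent, so that run does not settle how the fit behaves on these lists.

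The windows and all lists were chosen with earlier results of these data known. Named windows were the 10 highest by the lower viewpoint mean, the 5 longest runs, the 3 highest and 3 lowest viewpoint ratios among windows with at least 24 sites, the 3 smallest unadjusted p per direction and fit, any past an adjusted p of 0.05, and up to 3 on either side of the rule's limit. The windows listed in all 16 libraries and those gained or lost by genotype were named after their values were seen. Alternatives covered the rule's limit, window size and grid, the deposited value, the added sites, the filter, the scaling, the MEF pair as a block and each replicate left out.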

Additional observations from a re-analysis of the deposited data

Results flagged for a closer look

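In 4 of 54 groups of 4 libraries examined, a library lay far from the other 3 of its group by Dixon's criterion. Chance alone marks about 1 in 20 groups. Of the 4, 3 concern Cdca3 Rb1L/L replicate 1, the Cdca3 library with the fewest listed sites. It placed 42.6% of its sites on the 12 chromosomes in shared windows, against 33.1% to 33.7% in the other Cdca3 Rb1L/L libraries. It contacted 136 of the 194 shared windows, against 192 to 194. Of its sites in shared windows, 61.9% had a deposited value under 0.01, against 93.3% to 98.1%. The other is the window chr14:31500001-32000000, in which Pole Rb1+/+ replicate 1 had 7.86 sites per 1000 trans sites and the other Pole Rb1+/+ libraries 2.06 to 2.95.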

How the results depend on the processing

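Under the alternatives to the processing, 168 of 188 values of the main results were counted as unchanged. For a genotype difference this meant the same direction and side of the threshold. For limma calls it meant the same count, and for the number of shared windows a count within a set factor of the main one. All 383 values of the named windows' fold changes kept their direction and stayed uncalled. Those windows were picked for small p in these same data, so this does not measure how stable windows were. The size of several fell when 1 library was left out. The number of shared windows was 302 with a limit of 4 of 8 libraries per viewpoint, 116 with 6, 7 with 8 and 85 over sites with a deposited value under 0.01, and 120 to 183 when single cultures were left out. The Cdca3 share difference became 1.05 points over sites under 0.01. Without MEF pair 1, an alternative chosen after seeing the data, the differences in contacted windows became 3.33 (Pole) and 3.67 (Cdca3), and that in Cdca3 sites under 0.01 became 0.570 points. The cause of these reversals was not tested.

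With single cultures left out, the share difference ran from -14.6 to -7.09 points at Pole, from -6.16 to -1.14 at Cdca3 and from -11.4 to -0.926 between viewpoints. Contacted windows ran from -27.3 to 20.2 at Pole and from -12.1 to 7.25 at Cdca3, sites under 0.01 from -17.1 to 2.01 and from -8.28 to 3.77 points, and the same-site share from -1.37 to 3.99 points. The highest value of each was reached without Rb1L/L replicate 1, except at Cdca3 for the share (without Rb1+/+ replicate 1), where its omission gave the lowest. The limma count was 0 throughout, except 1 at Cdca3 without Rb1L/L replicate 1, where chr10:127500001-128000000 changed by -0.48 on the log2 scale (adjusted p = 0.0119), against -0.21 ± 0.14 (SE, adjusted p = 0.758) with all libraries.

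The pair numbers were not treated as pairing in the main tests, since the labels do not say what the cultures of a pair share. The correlations of paired deviations were 0.166, -0.0256, -0.0468 and 0.0528 at Pole and 0.154, 0.0691, 0.114 and 0.0394 at Cdca3. With cultures of other numbers they averaged -0.0539, 0.00935, 0.0155 and -0.0196 at Pole and -0.0667, -0.0256, -0.0279 and -0.00195 at Cdca3. Every pair at Cdca3 thus lay above the other numbers. Deviations cancel out within a genotype, so the 2 sets of correlations are not independent, and an effect of the pair was not tested. With the MEF pair as a block limma called 0 shared windows in each fit, with unadjusted p under 0.05 in 11 of 194 at Pole (54 of all 1346 windows), 5 at Cdca3 (72 of 1732), 21 for the average (82 of 1117) and 1 between viewpoints (59 of 1117). An exact sign-flip permutation over the 4 pairs gave p = 0.25 (Pole) and 0.125 (Cdca3) for the share, and 0.125 is the smallest it can give.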
